A study of Mus musculus with 12 samples.

Results

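Lysosome and autophagy genes were measured by bulk RNA-seq in hepatocytes of p16-Tom mice sorted by a red reporter. The 33 genes were taken by name from the 54839 features of the count table, by matching Ensembl identifiers to mouse gene symbols, and all 33 had enough counts to be tested. They comprise 11 lysosomal proteases, 8 glycosidases, 5 genes of lysosomal lipid handling, 5 lysosomal membrane proteins, and 4 autophagy genes including the transcription factor Tfeb. The RNA-seq covered 4 groups of 3 libraries, namely Tom- oil, Tom+ oil, Tom- CCl4 and Tom+ CCl4. CCl4 is a solvent that injures hepatocytes and causes liver fibrosis when its injection into the abdomen is repeated, and corn oil is its vehicle. All groups came from male heterozygous p16-Tom mice on a C57BL/6 background, and their age is not given in the sources used here. These mice carry p16-CreERT2, a recombinase made under the control of p16Ink4a and activated by tamoxifen, and R26-CAG-LSL-tdTomato-WPRE, a red fluorescent reporter that stays on once it has been recombined, so that Tom+ marks cells in which p16Ink4a was active when tamoxifen was given, in any cell type. Hepatocytes were obtained by collagenase perfusion and low-speed centrifugation, dead cells were removed with DAPI, and the methods name no antibody against other liver cells for this sort. Nothing in the labels says whether the libraries of a group came from separate mice, so that p-values measure only the spread between these libraries.

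Lysosomes are acidic organelles in which hydrolases break down proteins, glycans and lipids delivered by endocytosis and autophagy. In autophagy, cytoplasm is enclosed in a membrane decorated with LC3 and GABARAP proteins, and the receptor Sqstm1 (p62) brings ubiquitinated cargo to it. TFEB is a transcription factor that activates many lysosomal genes through sites that contain the letters CACGTG. The enzyme encoded by Glb1, lysosomal beta-galactosidase, is the source of the activity stained as senescence-associated beta-galactosidase, and p16Ink4a is a widely used marker of senescent cells, so the level of lysosomal genes in Tom+ hepatocytes is a measurement of interest in this design.

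Promoter windows of 300 bases (250 before to 50 after the start of the gene) were available from RefSeq on GRCm38.p6, which is mm10, for 28 of the 33 genes. Atp6v0d2, Ctsh, Ctsb, Npc1 and Asah1 had no window. CACGTG, which reads the same on both strands, was present in the windows of 10 of the 28 genes (35.7%), compared with 8.09% of all 27025 genes with a window and 11.2% of the 11209 genes with a window that were tested for expression. The 10 genes were Lamp1, Ctsa, Ctsd, Ctsf, Ctsl, Lgmn, Gla, Glb1, Naglu and Mcoln1. For the longer element known as CLEAR, which contains CACGTG, only exact matches to a palindromic string of 10 letters were counted. That string was in the windows of 0 of the 28 genes and of 0.37% of all genes. Strings that differ from it by any letter were not counted, so the 0 does not show that these genes lack a CLEAR element. The 6 stretches shown here are examples of windows with the motif, plus Ctsc as one without it, with CACGTG in capitals, 5′ to 3′ on the strand of the gene. They are not a representative draw, since 5 of the 6 hold the motif. Ctsc is shown because it was the gene called between the fractions with CCl4, and Glb1 and Lamp1 because their products mark lysosomes. Naglu, Mcoln1 and Ctsd are shown by 30 bases around one motif, of which 27, 30 and 30 bases lie in annotated exons of the gene itself, so that these stretches are partly or wholly transcribed in some annotated transcripts. The coordinates are chr9:114400978-114401077 (plus strand) for Glb1, chr8:13159061-13159160 (plus) for Lamp1, chr7:88277985-88278084 (plus) for Ctsc, chr11:101070009-101070038 (plus) for Naglu, chr8:3500462-3500491 (plus) for Mcoln1 and chr7:142387898-142387927 (minus) for Ctsd.
Glb1: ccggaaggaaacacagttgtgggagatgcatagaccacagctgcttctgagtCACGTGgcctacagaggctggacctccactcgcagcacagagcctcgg
Lamp1: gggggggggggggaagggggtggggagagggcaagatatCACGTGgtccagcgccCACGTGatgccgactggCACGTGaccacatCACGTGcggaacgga
Ctsc: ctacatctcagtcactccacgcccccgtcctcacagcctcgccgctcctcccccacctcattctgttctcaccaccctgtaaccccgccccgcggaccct
Naglu: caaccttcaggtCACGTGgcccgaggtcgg
Mcoln1: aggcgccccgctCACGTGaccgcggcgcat
Ctsd: ctCACGTGacccgttgagggccaaacaagc
Lamp1 held 4 copies within the 100 bases before its start, beginning at positions -61, -45, -28 and -15. The single copy of Glb1 began at position -48. A match is a description of letters in the sequence and was not tested for binding.

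Total counts ranged from 37568584 to 75331424 per library, and 3 counts corresponded to between 0.0369 and 0.0829 CPM (counts scaled to the TMM-normalized library size). The tdTomato reporter, which should separate the fractions, was at 1343, 1316 and 1369 CPM in Tom+ CCl4 against 123, 263 and 120 CPM in Tom- CCl4. In oil it was at 1546, 135 and 1225 CPM in Tom+ and at 1794, 157 and 143 CPM in Tom-. Replicate 1 of Tom- oil was thus at the level of Tom+ libraries, although labelled Tom-, and replicate 2 of Tom+ oil was at the level of Tom- libraries. Labels were kept as deposited, and some of the results that use oil libraries are given also without these 2, where this is stated. The hepatocyte marker albumin (Alb) was between 73423 and 119023 CPM in all libraries. Markers of other liver cells were low but present. The summed level of 22 macrophage markers was 44.9 to 151 CPM in Tom- oil, 56.7 to 222 in Tom+ oil, 200 to 250 in Tom- CCl4 and 123 to 338 in Tom+ CCl4, where the highest value was that of replicate 3. The summed level of 10 endothelial markers was 149 to 231 CPM in Tom- oil, 166 to 275 in Tom+ oil, 380 to 409 in Tom- CCl4 and 193 to 263 in Tom+ CCl4. That of 10 stellate and fibroblast markers was 7.30 to 18.2 CPM in Tom- oil, 8.95 to 23.2 in Tom+ oil, 70.9 to 90.4 in Tom- CCl4 and 52.3 to 107 in Tom+ CCl4.

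The 33 genes differed widely in level. Per unit length, as TPM (counts divided by feature length and scaled to the same sum in each library, mean of the 12 libraries), the most abundant were Psap, the precursor of the saposins that assist sphingolipid breakdown, at 565, and Lamp1, a major glycoprotein of the lysosomal membrane, at 532. The proteases Ctsb (359), Ctsd (298) and Ctsz (289) and the acid lipase Lipa (294) followed, then the autophagy genes Sqstm1 (229) and Gabarapl1 (226) and the second membrane glycoprotein Lamp2 (195). Ctsc was at 57.1 TPM and Glb1 at 10.9 TPM, whereas Tfeb was at 3.25 TPM, Atp6v0d2 at 1.26 TPM and Ctsk at 0.645 TPM. Ctsk, a protease of osteoclasts and fibroblasts, was detected with 0 to 87 counts per library.

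**Figure D1:**
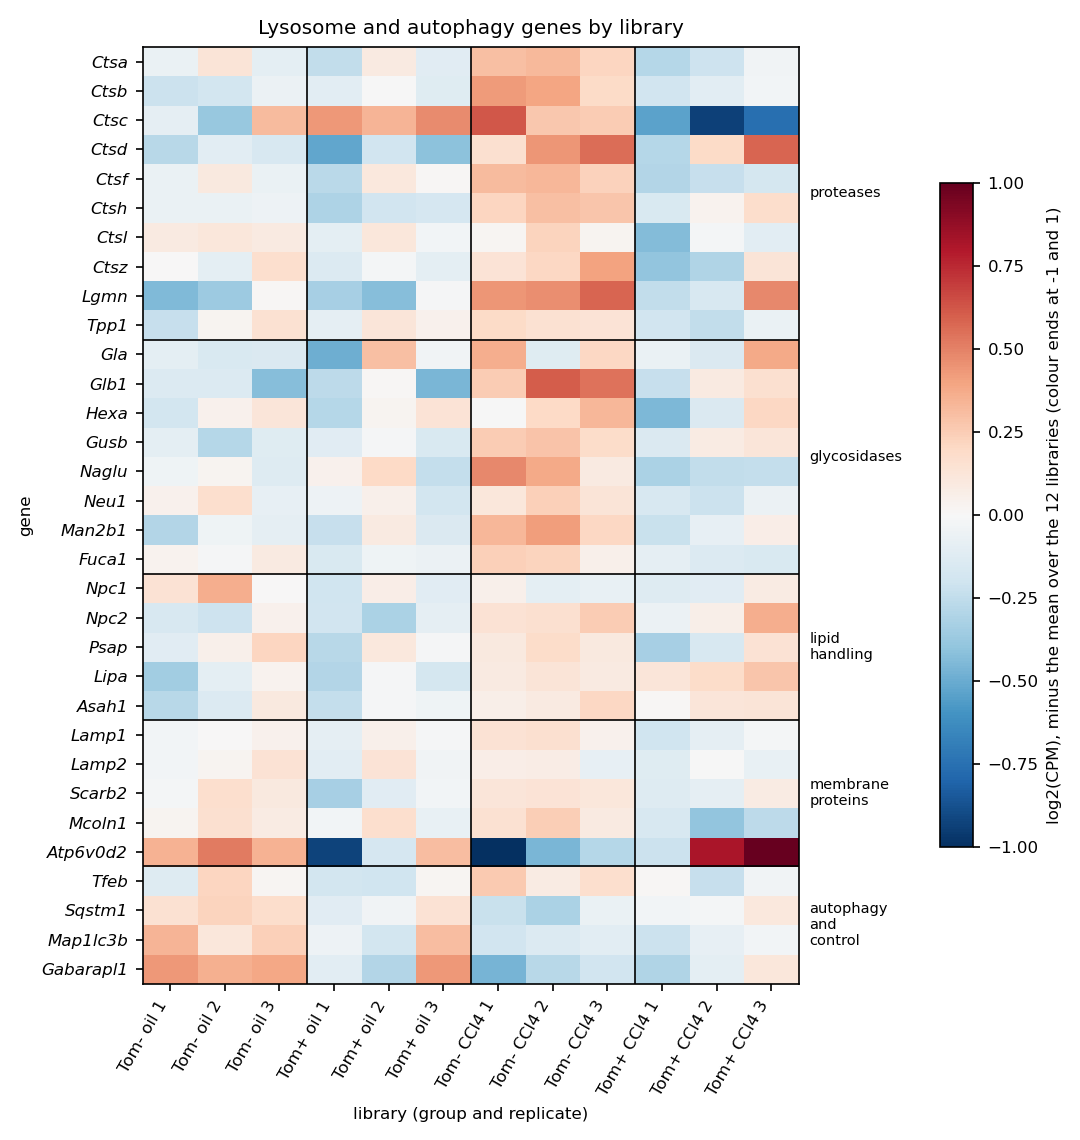
Level of 32 of the 33 genes (rows, grouped by role) in the 12 libraries (columns), as log2 CPM minus the mean of each gene over the libraries. Colours end at -1 and 1, and Ctsk is not drawn because one library had 0 counts. Most protease and glycosidase rows are above their mean (red) in the 3 Tom- CCl4 libraries, Ctsc is below it (blue) in the 3 Tom+ CCl4 libraries, and the autophagy rows Sqstm1, Map1lc3b and Gabarapl1 are red in Tom- oil.

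One step of the study, which concerned p16-high hepatocytes at the onset of liver fibrosis, was to compare their transcripts with those of the other hepatocytes in injured liver. With CCl4, Ctsc was the only one of the 33 genes that was called, that is, with a Benjamini-Hochberg adjusted p-value under 0.05 over all genes tested (edgeR's quasi-likelihood test) and a log2 fold change beyond 0.75. It was lower in Tom+, and 0 of the 33 were called higher, compared with 1.74% of the 17121 genes tested that were called lower and 0.222% that were called higher (1.96% either way). By the adjusted p-value alone, 8 of the 33 genes were lower and 0 were higher in Tom+, compared with 3.83% and 1.96% of all genes tested. Besides Ctsc these were the proteases Ctsa, Ctsb and Ctsf, the glycosidases Naglu, Man2b1 and Fuca1, and the calcium channel Mcoln1. As ratios of mean TPM these 8 genes were also below 0, between -0.89 for Ctsc and -0.07 for Fuca1, where the median of all genes tested was 0.24. Fewer cells of a type in a fraction and less RNA per cell cannot be told apart in such bulk libraries. The paper also reports that Tom+ hepatocytes with CCl4 lay mainly around the central vein of the liver lobule. Markers of position in the lobule were among the genes it found to differ between the fractions. By its account, bulk RNA-seq could therefore not separate traits of p16-high hepatocytes from position, and the 2 cannot be told apart here either.

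Ctsc encodes cathepsin C (dipeptidyl peptidase 1), a lysosomal protease that activates serine proteases of immune cells. The gene (ENSMUSG00000030560) lies on chromosome 7 of mm10, 88278085 to 88310888. It was at 126, 103 and 167 CPM in Tom- oil, 181, 170 and 186 CPM in Tom+ oil, 206, 161 and 160 CPM in Tom- CCl4, and 92.4, 70.2 and 79.8 CPM in Tom+ CCl4. The 3 Tom+ CCl4 libraries were thus the lowest of the 12. Ctsc was lower in Tom+ than in Tom- with CCl4 by a log2 fold change of -1.12 ± 0.16 (SE, 3 libraries per group; adjusted p = 0.00505 with edgeR), and it was lower in all 3 same-numbered pairs. Over 22 settings the log2 fold change was between -1.23 and -0.97 and the adjusted p between 1.63e-08 and 0.0347. The Tom+ CCl4 library with the highest macrophage marker sum (338 CPM, against 123 in each of the other libraries of this group) was at 79.8 CPM of Ctsc, between those libraries. The macrophage marker sums of Tom- CCl4 were 200 to 250 CPM. The part of macrophages in the Ctsc difference was not tested.

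Among the proteases, 10 of 11 had a negative log2 fold change in Tom+ against Tom- with CCl4, with a median of -0.42 (9 of 11 on the TPM scale, median -0.19), and 8 of 11 had groups that did not overlap with Tom+ lower, compared with 14.6% of all genes tested. Ctsb, the most abundant of the cysteine cathepsins, was at 1226, 1202 and 1042 CPM in Tom- CCl4 and at 799, 848 and 896 CPM in Tom+ CCl4, a log2 fold change of -0.45 ± 0.10 (edgeR adjusted p = 0.0182). Ctsf had a log2 fold change of -0.53 (adjusted p = 0.0113) and Ctsa, a carboxypeptidase that also protects Glb1 and Neu1 in a complex, of -0.45 (adjusted p = 0.0230). Ctsd, the main aspartic protease of the lysosome, was at 321, 390 and 423 CPM in Tom- CCl4 and at 236, 328 and 430 CPM in Tom+ CCl4, so that the groups overlapped (log2 fold change -0.19 ± 0.18, adjusted p = 0.574). Ctsk was the exception in sign, at 17, 30 and 16 counts in Tom- CCl4 and 39, 8 and 87 counts in Tom+ CCl4, with overlapping groups. Lgmn, Ctsd and Ctsz were each highest in replicate 3 among the Tom+ CCl4 libraries, at 41.4, 430 and 191 CPM. So were most of the 33 genes, among them Ctsb, Glb1, Lamp1 and Lipa. Replicate 3 was also the library with the highest macrophage marker sum, and a link was not tested.

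All 8 glycosidases had a negative log2 fold change in this comparison, with a median of -0.30 and a range of -0.59 to -0.09, and the groups of 6 did not overlap, compared with the same 14.6% of all genes. With scaling by total counts 7 of the 8 were below 0, and on the TPM scale 6 of the 8. Naglu, which degrades heparan sulfate, was lower (log2 fold change -0.59, adjusted p = 0.0144), as were Man2b1, an alpha-mannosidase (-0.40, adjusted p = 0.0491), and Fuca1, an alpha-fucosidase (-0.30, adjusted p = 0.0411). Glb1 (ENSMUSG00000045594, chromosome 9, 114401076 to 114474898) was at 16.1, 20.7 and 19.7 CPM in Tom- CCl4 and at 11.5, 14.4 and 15.2 CPM in Tom+ CCl4. The highest Tom+ library was below the lowest Tom- library, but the difference of -0.46 ± 0.15 did not pass the test (edgeR adjusted p = 0.0862). With same-numbered libraries as a block, the value was -0.46 with an adjusted p of 0.00615.

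No gene of lipid handling passed the test. The log2 fold changes of Npc1 and Npc2, which export cholesterol, and of Psap, Lipa and Asah1 (acid ceramidase) were between -0.23 and 0.09, the groups of all 5 overlapped, and on the TPM scale all 5 values were above 0. Lamp1 (ENSMUSG00000031447, chromosome 8, 13159161 to 13175338) was at 663, 672 and 619 CPM in Tom- CCl4 and at 523, 565 and 592 CPM in Tom+ CCl4 (log2 fold change -0.22 ± 0.08, adjusted p = 0.146). Lamp2 was at 822, 825 and 740 CPM against 721, 783 and 747 CPM, and these groups overlapped (-0.08 ± 0.09, adjusted p = 0.652). Mcoln1, the calcium channel TRPML1, was lower in Tom+ by a log2 ratio of -0.43 (adjusted p = 0.0182).

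Atp6v0d2, a subunit of the proton pump known from osteoclasts and macrophages, went the other way. It was at 1.11, 2.27 and 2.69 CPM in Tom+ CCl4 and at 0.506, 0.940 and 1.06 CPM in Tom- CCl4, a log2 fold change of 1.26 ± 0.39 (edgeR adjusted p = 0.0736) with groups that did not overlap. The test with same-numbered libraries as a block called it higher (1.26, adjusted p = 0.00851). It was counted with 20 to 129 reads per library, and in Tom+ CCl4 its level was highest in replicate 3, as for most of the lysosomal genes.

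Of the 4 genes of autophagy and its control 0 passed the test, and 3 had a positive log2 fold change. Sqstm1 was at 275, 258 and 307 CPM in Tom- CCl4 and at 315, 317 and 346 CPM in Tom+ CCl4, with every Tom+ library above every Tom- library (log2 fold change 0.22 ± 0.09, adjusted p = 0.185). With same-numbered libraries as a block the adjusted p of Sqstm1 was 0.041, within the fold threshold. Gabarapl1 had a log2 fold change of 0.22 (adjusted p = 0.455) and Map1lc3b, which encodes LC3B, of 0.04 (adjusted p = 0.879), both with overlapping groups. Tfeb was at 9.28, 8.18 and 8.72 CPM in Tom- CCl4 and at 7.80, 6.59 and 7.58 CPM in Tom+ CCl4 (-0.25 ± 0.13, adjusted p = 0.275).

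**Figure D2:**
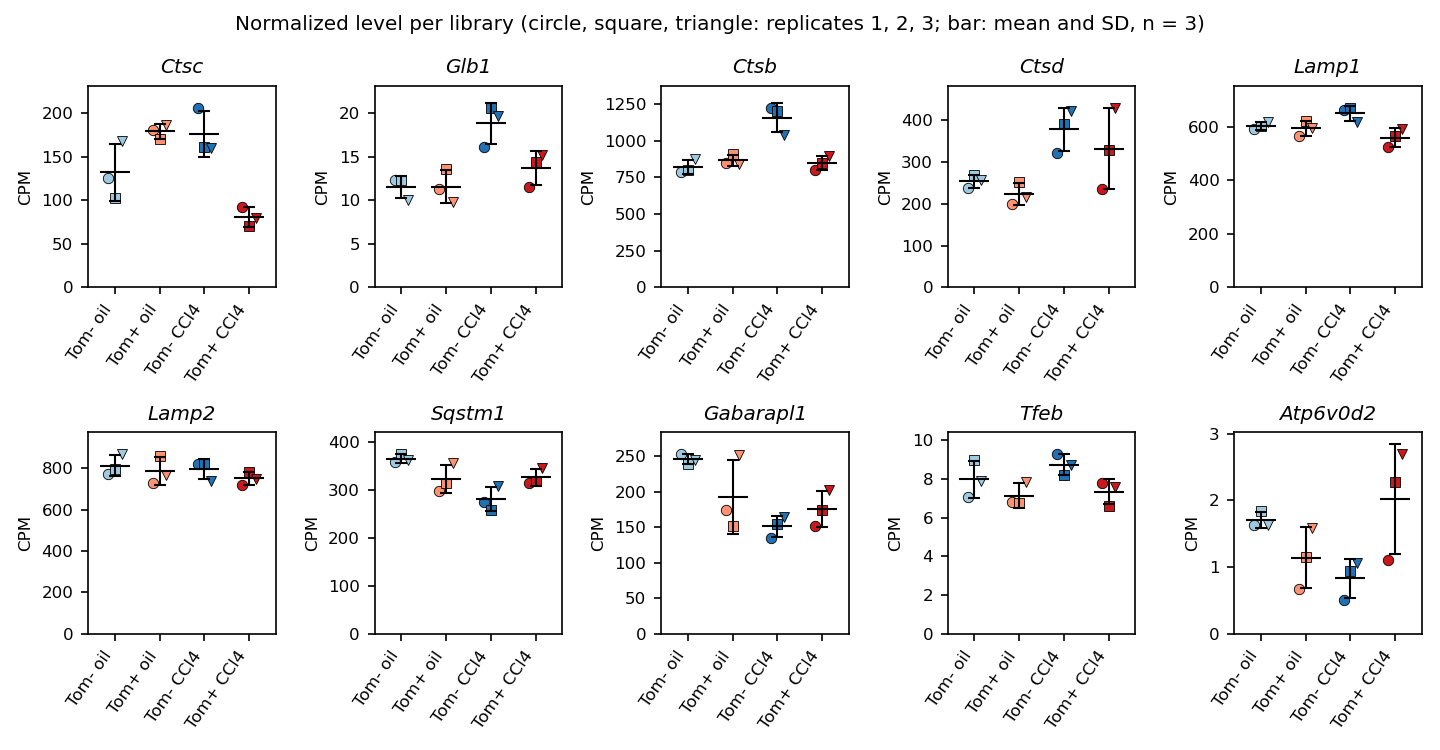
Level of 10 of the genes in CPM (vertical axis, from 0) in each library of the 4 groups, with symbols for replicates 1 to 3 and bars for the mean and SD (n = 3). Ctsc in Tom+ CCl4 lies between 70.2 and 92.4 CPM, below all other libraries, and Glb1 in Tom- CCl4 lies between 16.1 and 20.7 CPM, above all other libraries.

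Over all 33 genes the log2 fold change of Tom+ against Tom- with CCl4 had a median of -0.24, against 0.00 for all genes tested, and 27 of the 33 values were below 0 (22 with scaling by total counts and 17 as a ratio of mean TPM). Those other scalings moved the median of all genes tested to 0.15 and 0.24, and relative to that median 27 of the 33 genes were lower under each scaling, by a median of -0.24 to -0.25. The groups of 18 genes did not overlap with Tom+ lower and those of 2 with Tom+ higher (Sqstm1 and Atp6v0d2), compared with 14.6% and 14.1% of all genes tested. In the same-numbered pairs, the median log2 ratio of the 33 genes was -0.37 in pair 1, -0.31 in pair 2 and -0.10 in pair 3. With same-numbered libraries as a block, 2 genes were called (Ctsc lower and Atp6v0d2 higher, against 3.98% of all genes), and 17 were lower and 2 higher by the adjusted p-value alone, compared with 9.72% and 7.94% of all genes. The count of 8 genes lower by the adjusted p-value alone changed when single libraries were left out, which also leaves fewer libraries for the test. It was 1 without Tom+ CCl4 replicate 2 or without Tom- CCl4 replicate 2, 3 without Tom+ CCl4 replicate 1, 4 without Tom- CCl4 replicate 1 and 9 without Tom+ CCl4 replicate 3, and Ctsc was among them each time. In the same order, the median log2 fold change of the genes was -0.24, -0.21, -0.16, -0.26 and -0.32.

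Endothelial markers moved in the same direction, since 7 of 10 were called lower in Tom+ than in Tom- with CCl4 and the groups of all 10 did not overlap. Of all genes tested, 1.74% were called lower and 14.6% had groups that did not overlap with Tom+ lower. Of the 22 macrophage markers 0 were called, but 15 were below 0 with a median log2 fold change of -0.34. With the block 2 of them were called lower, where 3.98% of all genes were called either way. Of the stellate and fibroblast markers 0 of 9 tested were called, with a median of -0.12. Of the hepatocyte markers 0 of 10 were called, with a median log2 fold change of -0.24. The part of these differences in the lower values of the lysosomal genes was not tested.

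In oil, 0 of the 33 genes were called and 0 passed the adjusted p-value alone (edgeR), and 0 of the 17121 genes tested were called (0%). Unadjusted p-values were under 0.05 for 4 of the 33 genes, compared with 7% of all genes. DESeq2 and limma-voom also called 0 of them. The median log2 fold change of Tom+ against Tom- was -0.07 in oil, with 11 values above and 22 below 0. The groups of 1 gene did not overlap with Tom+ higher and those of 5 with Tom+ lower (Ctsh, Scarb2, Sqstm1, Fuca1 and Atp6v0d2), compared with 6.11% and 5.57% of all genes. The first of these was Ctsc, with a log2 fold change of 0.44 ± 0.16 (edgeR adjusted p = 0.610). With the block it was 0.46 (edgeR adjusted p = 0.0382), within the fold threshold, so it was not called. The share of all genes that passed both thresholds with the block was 0.234%, which is not a share by the adjusted p-value alone. In this block both oil libraries numbered 1 had a high reporter and both numbered 2 a low one, so that these pairs did not separate the fractions. Without the 2 oil libraries in doubt the value for Ctsc was 0.43 (edgeR adjusted p = 0.843). Glb1 was at 12.3, 12.3 and 10.1 CPM in Tom- oil and at 11.3, 13.6 and 9.84 CPM in Tom+ oil, a log2 fold change of 0.01 ± 0.15 (adjusted p = 0.997). Lamp1 was at 590, 604 and 620 CPM against 566, 622 and 595 CPM, Lamp2 at 772, 798 and 868 against 728, 861 and 767 CPM, and the fractions overlapped for both. Ctsd was at 237, 268 and 258 CPM in Tom- oil against 200, 252 and 216 CPM in Tom+ oil. Tfeb was at 7.07, 8.97 and 7.87 against 6.82, 6.74 and 7.86 CPM. Atp6v0d2 was at 1.63, 1.84 and 1.63 CPM in Tom- oil and at 0.679, 1.15 and 1.59 CPM in Tom+ oil (-0.60 ± 0.38, adjusted p = 0.804). Without the 2 libraries whose reporter went against their label the count stayed at 0, the median became -0.16 and 30 of the 33 values were below 0. The median of all genes in that smaller fit is not given here, so these signs were not set against it.

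**Figure D3:**
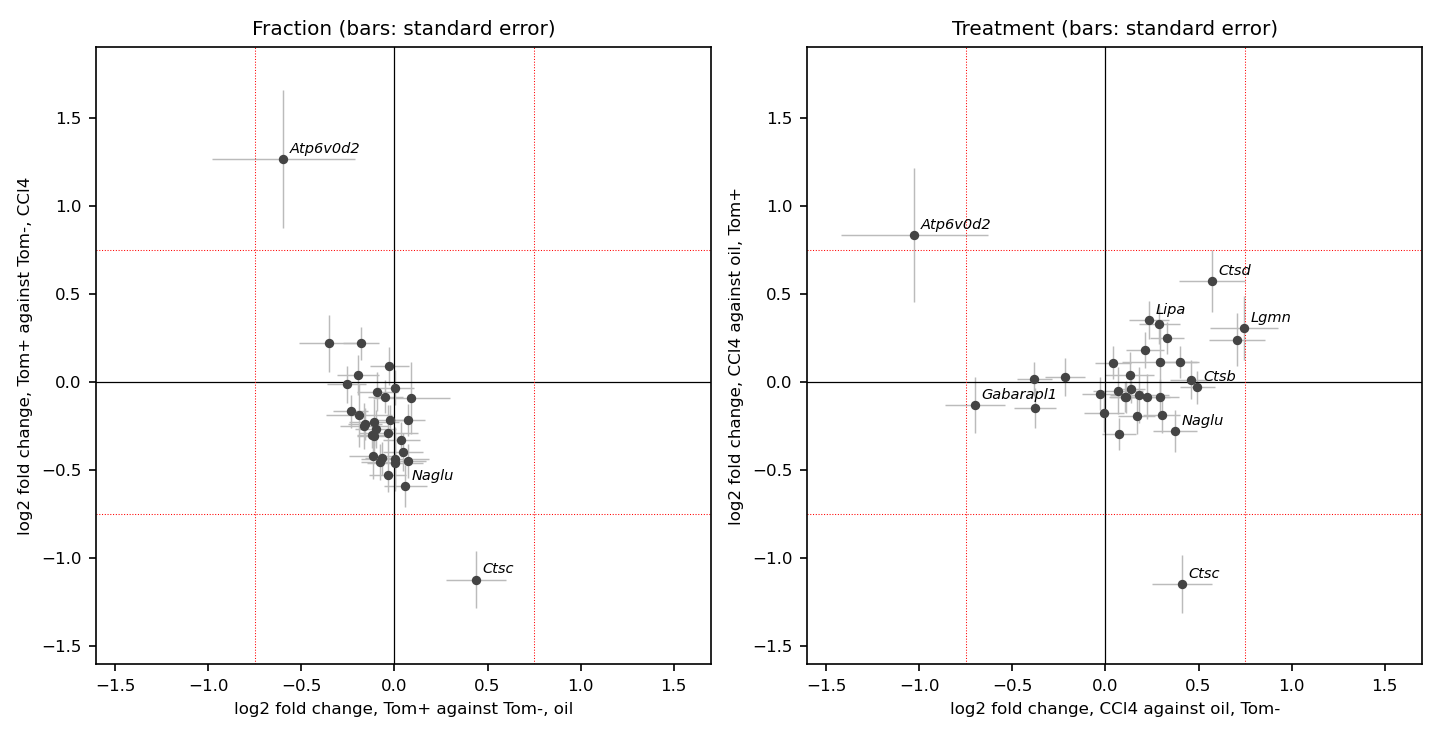
Log2 fold changes of 32 of the genes (Ctsk is not drawn) with standard errors, for Tom+ against Tom- in oil (horizontal) and CCl4 (vertical) at left, and for CCl4 against oil in Tom- (horizontal) and Tom+ (vertical) at right. Dotted lines mark 0.75 in either direction. Ctsc is at 0.44 and -1.12 at left and at 0.41 and -1.15 at right, apart from the other genes, and Atp6v0d2 is at -0.60 and 1.26 at left.

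Whether the difference between the fractions itself changed with CCl4 was tested by the interaction of fraction and treatment. Ctsc was called, with a difference of -1.56 ± 0.23 between its log2 fold changes in CCl4 and oil (edgeR adjusted p = 0.00963), and it was the 1 gene of the 33 compared with 1.17% of all genes. The value was -1.56 with an adjusted p of 0.0352 when the 2 oil libraries in doubt were left out. Atp6v0d2 had the opposite sign, 1.86 ± 0.55 (adjusted p = 0.0974). Without the 2 oil libraries in doubt the adjusted p of Atp6v0d2 was 0.229. With same-numbered Tom+ and Tom- libraries of a treatment as a block the difference was 1.91 (adjusted p = 0.00779) and it was called, so that 2 of the 33 genes were called against 5.48% of all genes. In this block the oil pairs numbered 1 and 2 did not separate the fractions by the reporter. Of the 19 proteases and glycosidases, Ctsc included, 18 were below 0, with a median of -0.36. After Ctsc, Naglu (-0.65, adjusted p = 0.0675) and Ctsb (-0.52, adjusted p = 0.0677) had the lowest adjusted p-values among them, and neither passed the test. For Glb1 the value was -0.47 ± 0.21 (adjusted p = 0.262). Without the 2 oil libraries in doubt the edgeR adjusted p was 0.203 for Naglu, 0.21 for Ctsb and 0.517 for Glb1. The autophagy genes Gabarapl1 (0.57, adjusted p = 0.200) and Sqstm1 (0.40, adjusted p = 0.135) were on the other side of 0. The median of all 33 genes was -0.18, and with scaling by total counts -0.03, where the median of all genes tested was 0.14.

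The effect of the injury in the reporter-negative fraction was asked by comparing Tom- CCl4 with Tom- oil. There 0 of the 33 genes were called, compared with 7.92% of all genes (edgeR). By the adjusted p-value alone 8 genes were higher with CCl4 and 3 were lower, compared with 9.37% and 6.75% of all genes, and unadjusted p-values were under 0.05 for 18 genes, compared with 31.5%. The 8 higher genes were the proteases Ctsb, Ctsd, Ctsh and Lgmn and the glycosidases Glb1, Gusb, Naglu and Man2b1, and the 3 lower ones were the autophagy genes Gabarapl1, Sqstm1 and Map1lc3b. The groups of 13 genes did not overlap with CCl4 higher and those of 4 with CCl4 lower, compared with 19.3% and 16.8% of all genes.

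Lgmn, an asparaginyl endopeptidase that processes cathepsins, had the largest of the 8 increases. It was at 40.3, 40.9 and 44.5 CPM in Tom- CCl4, above every Tom- oil library, with a log2 fold change of 0.74 ± 0.18 (edgeR adjusted p = 0.0171), just within the fold threshold. Glb1 followed with 0.71 ± 0.15 (adjusted p = 0.0077), its 3 Tom- CCl4 libraries all above the 3 Tom- oil libraries. Ctsb rose from 785, 804 and 877 CPM to 1226, 1202 and 1042 CPM (0.49 ± 0.10, adjusted p = 0.00467). Ctsd rose by 0.57 ± 0.18 (adjusted p = 0.0442), Man2b1 by 0.46, Gusb (beta-glucuronidase) by 0.40, Naglu by 0.37 and Ctsh by 0.33. Lamp1, Lamp2, Scarb2 and Mcoln1, which belong to the membrane, had log2 fold changes between -0.03 and 0.11, and 0 of these 4 passed the test. The remaining membrane gene, Atp6v0d2, was at 0.506, 0.940 and 1.06 CPM in Tom- CCl4, below every Tom- oil library. Its log2 fold change was -1.03, and it passed the adjusted p-value in 1 of 22 settings, which was not the main one. Tfeb had a value of 0.13 (adjusted p = 0.530).

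The fall of the autophagy genes was largest for Gabarapl1, a GABARAP-family protein of the autophagosome membrane. It was at 253, 240 and 245 CPM in Tom- oil and at 136, 154 and 164 CPM in Tom- CCl4, a log2 fold change of -0.70 ± 0.16 (edgeR adjusted p = 0.0113). Sqstm1 was at 357, 374 and 363 CPM in Tom- oil and at 275, 258 and 307 CPM in Tom- CCl4 (-0.38 ± 0.09, adjusted p = 0.0160). Map1lc3b was lower by a similar amount (-0.38, adjusted p = 0.0384). In all 3 genes every oil library was above every CCl4 library.

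These counts changed when libraries were left out, which also leaves fewer libraries for the test. Without both libraries whose reporter went against their label, 4 genes were higher by the adjusted p-value alone (Ctsb, Glb1, Gusb and Man2b1) and 2 were lower (Sqstm1 and Gabarapl1), and Glb1 passed both thresholds (0.75, adjusted p = 0.0179). Without Tom- oil replicate 1 or Tom- oil replicate 2 the count of higher genes was 3, and without Tom- CCl4 replicate 2 it was 4. Without Tom- CCl4 replicate 3 it was 5. Ctsb, Glb1 and Gabarapl1 had an adjusted p under 0.05 in all 22 settings. On the TPM scale, where the median of all genes tested was -0.10, Ctsb was at 0.39, Glb1 at 0.60, Lgmn at 0.63 and Gabarapl1 at -0.81. Markers of other cells rose alongside, since 10 of 10 endothelial, 7 of 9 stellate and fibroblast and 2 of 22 macrophage markers were called higher, compared with 7.92% of all genes called either way. All 22 macrophage markers had a positive log2 fold change. Their part in the rise of the hydrolases was not tested.

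In Tom+, the comparison of CCl4 with oil called Ctsc alone of the 33 genes, as lower, compared with 2.34% of all genes called lower and 5.24% called either way. Ctsc fell by 1.15 ± 0.16 on the log2 scale (edgeR adjusted p = 0.000946), and all 3 Tom+ CCl4 libraries were below all 3 Tom+ oil libraries. Without the 2 oil libraries in doubt its adjusted p was 0.008. By the adjusted p-value alone 0 genes were higher and 1, again Ctsc, was lower, compared with 4.91% and 4.56% of all genes. Glb1 had a value of 0.24 ± 0.15 (adjusted p = 0.359), Ctsb of -0.03 ± 0.10 (adjusted p = 0.884), Ctsd of 0.57 ± 0.18 (adjusted p = 0.061) and Gabarapl1 of -0.13 ± 0.16 (adjusted p = 0.676). Sqstm1 was at 298, 314 and 355 CPM in Tom+ oil and at 315, 317 and 346 CPM in Tom+ CCl4. Lipa, the acid lipase, and Npc2 had groups that did not overlap, with CCl4 higher (0.35, adjusted p = 0.055, and 0.33, adjusted p = 0.0817). Lipa passed the adjusted p-value in 8 of 22 settings, among them the one without the 2 oil libraries in doubt (0.44, adjusted p = 0.0235). The count of higher genes by the adjusted p-value alone was 4 with scaling by total counts and 3 without Tom+ CCl4 replicate 1. In all, 4 genes had such groups with CCl4 higher and 2 with CCl4 lower, compared with 14.6% of all genes in each direction. Over all 33 genes 16 values were above and 17 below 0, with a median of -0.03, and relative to the median of all genes the same split was found with scaling by total counts and on the TPM scale. Without Tom+ CCl4 replicate 1, Ctsd was also called.

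Same-numbered Tom+ and Tom- libraries of a treatment were also added, so that the comparison does not use the fraction labels. By the reporter, both oil libraries numbered 1 were high and both numbered 2 were low, so that the oil sums hold unequal mixtures. In these 3 sums against 3, 0 of the 33 genes were called with CCl4 against oil and 0 passed the adjusted p-value (edgeR), compared with 4.78% of all genes called and 4.95% higher and 3.24% lower by the adjusted p-value alone. Unadjusted p-values were under 0.05 for 12 genes, compared with 26.2%. DESeq2 called 1 gene (Ctsk). Glb1 had a log2 fold change of 0.45 (adjusted p = 0.0789), Ctsd of 0.55 (adjusted p = 0.0799), Gabarapl1 of -0.39 (adjusted p = 0.0755) and Ctsc of -0.40 (adjusted p = 0.0537), and the sums of these genes did not overlap between the treatments. Such sums were found for 9 genes with CCl4 higher and 4 with CCl4 lower, compared with 17.2% and 15.8% of all genes. The median of the 33 genes was 0.04.

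Genes with and without CACGTG in the promoter window are given side by side as a description. With CCl4, Tom+ against Tom- had a median log2 fold change of -0.43 over the 10 genes with the motif, all 10 below 0, and of -0.22 over the 18 genes without it, of which 13 were below 0 and one was Ctsc. In Tom-, CCl4 against oil had a median of 0.30 with the motif and of 0.15 without it. In Tom+ the medians of CCl4 against oil were -0.09 and -0.05. In oil the medians of Tom+ against Tom- were -0.03 and -0.10. The genes with the motif were all proteases, glycosidases or membrane proteins. The autophagy genes and the lipid-handling genes with a window all lacked it, so that motif and role were partly tied. Proteases such as Ctsz, glycosidases such as Gusb and the membrane protein Lamp2 lacked it too, so the motif varied within these roles. The medians given here were not split by role, and the part of role in them was not tested.

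Other genes of the pathway were described from 6 further lists. With CCl4, Tom+ against Tom- had a median log2 fold change of -0.27 over 25 other lysosomal hydrolases, of which 22 were below 0 and 0 were called, and of -0.23 over 19 tested lysosomal membrane proteins, of which 0 were called. The 17 subunits of the V-ATPase, which acidifies the lysosome, had a median of 0.06, and the 38 other autophagy genes had a median of 0.06 with 29 above 0. In both of these lists 0 genes were called. The 19 genes of the TFEB family and nutrient sensing had a median of 0.16, with 0 called. Sort1 (sortilin), which carries enzymes to the lysosome, was the 1 called gene of 10 in the list of enzyme sorting. It was at 14.6, 15.2 and 21.5 CPM in Tom+ CCl4 and at 8.19, 8.40 and 10.9 CPM in Tom- CCl4, a log2 fold change of 0.90 ± 0.21 (edgeR adjusted p = 0.0284). With the block, Cd63 was also called higher (0.76, adjusted p = 0.0468). In oil 0 genes of the 6 lists were called.

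Between CCl4 and oil, Cd63, a tetraspanin of late endosomes and lysosomes, was the gene of these lists with the largest change. It was at 0.0775 to 0.450 CPM in Tom- oil and at 4.32 to 10.7 CPM in Tom- CCl4, a log2 fold change of 4.77 ± 0.61 (edgeR adjusted p = 0.000996). In Tom+ it was at 0.245 to 0.506 CPM in oil and at 7.77 to 18.2 CPM with CCl4 (4.73 ± 0.57, adjusted p = 0.000668), and its summed libraries gave 4.73 as well. In the oil libraries 3 counts corresponded to 0.0433 to 0.0791 CPM, so these fold changes start from levels near the floor. Stellate and fibroblast markers also rose with CCl4, by a median log2 fold change of 2.87 in Tom- and 2.47 in Tom+. Their part in the rise of Cd63 was not tested. In Tom-, the V-ATPase subunit Tcirg1 (44.4 to 61.3 CPM in oil and 105 to 115 CPM with CCl4, adjusted p = 0.000798) and the TFEB relative Tfec (log2 fold change 1.81, adjusted p = 0.0272) were also called higher. The other autophagy genes had a median of -0.23 in Tom-, with 33 of 38 below 0, 0 called and 7 lower by the adjusted p-value alone, compared with -0.04 in Tom+. The other hydrolases had a median of 0.16 in Tom- and of -0.19 in Tom+, with 0 called in each.

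**Figure D4:**
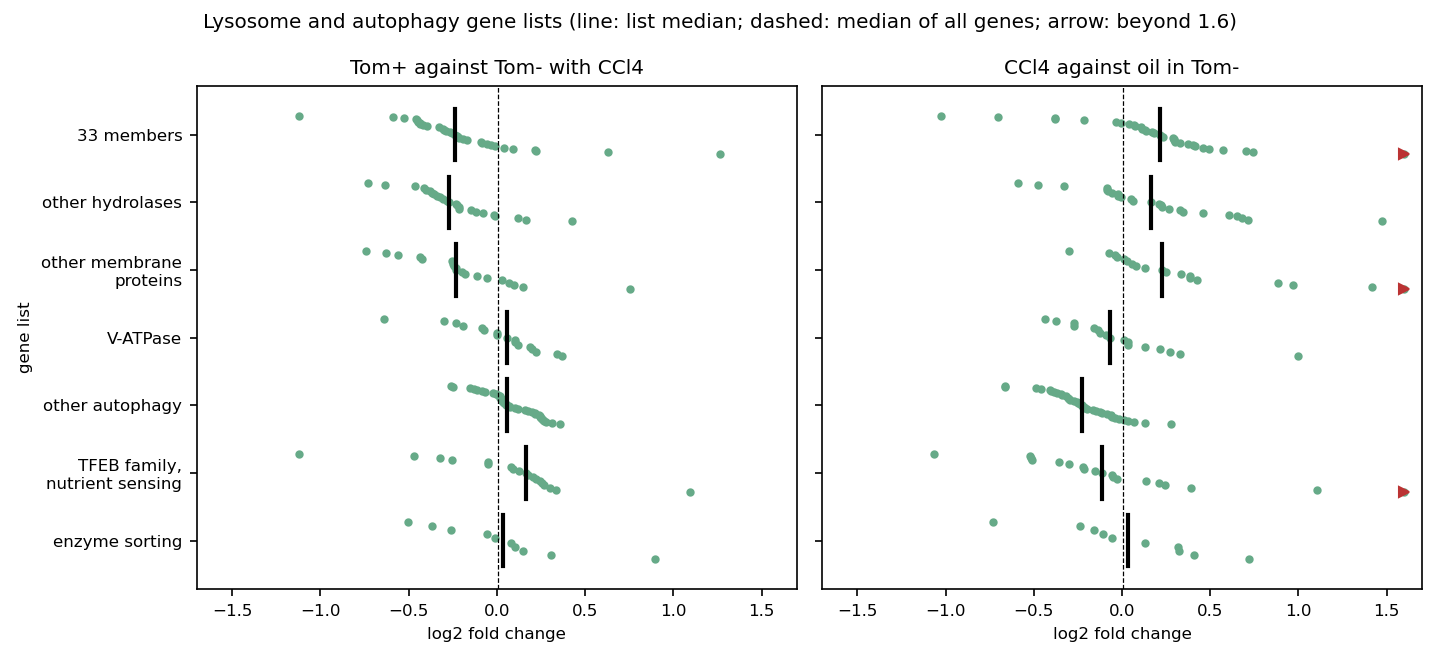
Log2 fold changes of the 33 genes and of 6 further lists (rows, 1 point per gene) for Tom+ against Tom- with CCl4 at left and CCl4 against oil in Tom- at right. Black bars are list medians and the dashed line is the median of all genes. At left the 33 genes and the other hydrolases have medians of -0.24 and -0.27, and at right the other autophagy genes have a median of -0.23.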

How the data were processed

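RNA of 12 libraries was enriched for poly-A and sequenced in a strand-specific way. The submitters' notes name fastp (v0.23.2), HISAT2 (v2.1.0), DESeq2 (v1.42.1) and the mm10 build. The authors deposited expected counts for each feature, without normalization, and feature lengths. The methods name TPMcalculator for TPM values, but the program behind the deposited counts, its strand setting and its annotation are not given in the sources used here, so reads of overlapping genes may be shared. Counts with fractions occurred in 26 of the 33 genes and were rounded (a change of at most 0.125% for these genes), although the design had assumed whole counts. Of the identifiers 99.8% matched a symbol.

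R (v4.3.3) was used for the quasi-likelihood test of edgeR (v4.0.16) after TMM normalization and filterByExpr (17121 genes, or 17743 for sums). All 12 libraries shared 1 model with 4 group means, and p-values were adjusted by Benjamini-Hochberg. Genes were called when the adjusted p was under 0.05 and the log2 fold change exceeded 0.75 in size. TPM were computed from counts and deposited lengths. The main fit was also run on simulated counts of independent libraries. Same-numbered libraries shared no deviations there, so that run does not show how the fit handles them. Figures were drawn with matplotlib (v3.10.9). The level of 3 counts covers counting error only.

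Genes and lists were chosen with earlier results of these data known. By rule, values of every library are given for genes called in any comparison and for Glb1, Lamp1, Lamp2, Tfeb, Sqstm1 and Ctsd, and up to 4 called genes are named for each further list and comparison. Other genes for which single values are given were picked once results were known.

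Libraries of Tom+ and Tom- with the same number in the labels shared their deviations from the group means (correlation over genes with a mean of at least 10 CPM, 0.35 to 0.57 in oil and 0.55 to 0.73 with CCl4). A fit with the number as a block is therefore given for comparisons of these fractions where it changes a call. Between CCl4 and oil only the count of genes called with the block is given. The labels do not say that a number marks a mouse. Alternatives were DESeq2 (v1.42.0), limma-voom (limma v3.58.1), other normalizations and filters, 6 libraries per fit, the adjusted p alone, the block, and leaving out libraries.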

Additional observations from a re-analysis of the deposited data

Results flagged for a closer look

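The difference between Tom+ and Tom- changed with treatment for Ctsc. It was -1.12 with CCl4 and 0.44 in oil on the log2 scale, and the difference between them was -1.56 (edgeR adjusted p = 0.00963, 3 libraries per group). Atp6v0d2 passed the same test only with same-numbered Tom+ and Tom- libraries of a treatment as a block or with DESeq2. Its difference was 1.91 with the block (edgeR adjusted p = 0.00779) and 1.86 without it (adjusted p = 0.0974), where the adjusted p was 0.229 when the 2 oil libraries in doubt were left out, at a level of at most 2.69 CPM. In the block the oil pairs numbered 1 and 2 did not separate the fractions by the reporter. Groups of 3 are too small for a test of single outlying libraries.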

How the results depend on the processing

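The count of called genes was 1 for Tom+ against Tom- with CCl4 and became 2 with DESeq2, with scaling by total counts and with the replicate block of same-numbered libraries (Atp6v0d2 was added each time), 8 with the adjusted p alone and 1 to 2 when single libraries were left out. In oil it was 0 in every setting, also when libraries were left out (0 to 0). For CCl4 against oil in Tom- it was 0, and it became 1 with DESeq2, limma-voom, 6 libraries, scaling by total counts, at least 10 counts in every library or without both oil libraries in doubt, 3 with the replicate block and 11 with the adjusted p alone, and it was 0 to 2 when single libraries were left out. In Tom+ it was 1, and 1 to 2 when libraries were left out. For the interaction it was 1, and 2 with DESeq2 and with the replicate block, and 1 to 3 when libraries were left out. For the summed libraries it was 0, and 1 with DESeq2 and with the replicate block, and 0 to 1 when sums were left out. Beyond the setting with the adjusted p alone, the calls gained were those of Ctsk, Lgmn, Glb1, Gabarapl1, Atp6v0d2, Ctsd and Naglu, and the call of Ctsc was kept in every setting of the 3 comparisons that made it. The causes were not tested. Of 3986 values of single genes under other settings 3785 kept their sign and their side of the thresholds, 47 gained a call and 154, called in neither fit, changed sign or moved. Between CCl4 and oil, same-numbered libraries did not deviate together in every pair (correlations from -0.02 to 0.12 in Tom- and from 0.02 to 0.30 in Tom+), so that the block there joins libraries that share only a number. Scaling by total counts and the TPM scale were chosen after seeing the data. The interaction has no fit to 6 libraries.

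Genes at about 1 CPM, such as Ctsk and Atp6v0d2, rested on 0 to 129 counts per library, and small changes of theirs were not detectable at this depth. For abundant genes the spread between 3 libraries sets the precision.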
